A study of Mus musculus with 9 samples.

Results

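The genes described here are 6 of the 37975 genes in an RNA sequencing table of mouse stem cells: Nkx2-9, Cited4, Col9a1, Ism2, Susd1 and Fam167a. They were chosen from these same measurements, as genes that were high at 21 to 49 h of Sox17 induction and near the uninduced level at day 6 and in both lines of extraembryonic endoderm stem (XEN) cells. Their levels in those libraries are therefore a description, with no test. The 7 h library and the R1 embryonic stem cell (ESC) library took no part in the choice. All 6 genes had 1 row each, and all 6 passed the filter of at least 1 FPKM (fragments per kilobase of transcript, scaled to the mapped fragments of the library, and so comparable between genes) in some library.

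The table holds 9 libraries with 1 library per group. A Sox17 overexpression ESC line, named 4J in the sample descriptions, was sequenced untreated (no dox) and after exposure to doxycycline (dox) at 100 ng/ml, for 7, 21, 35 and 49 h and for 6 days. Sox17-XEN has the same genotype and the same line name, 4J, with a dox period and a dox-free period of 30 days each, in an order the label leaves unclear, and its description reads dox-indep. Wild-type XEN cells (IM8AR) and wild-type R1 ESCs complete the set. ESCs of both genotypes were kept with serum and LIF on a layer of embryonic mouse fibroblasts, and XEN cells grew in serum and medium conditioned by such fibroblasts. The day 6 description carries the word SORT with no detail, whether the 4J line is a single clone is not given, and no culture without dox was matched to the later times.

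Sox17 is an HMG-box transcription factor of the SOX F group that binds short motifs around ACAAT and is needed for endoderm formation in the mouse embryo. XEN cells are cultured stem cells of the primitive endoderm, the layer that gives rise to the yolk sac endoderm. The 6 genes are not a known pathway. Nkx2-9 encodes a homeodomain transcription factor of the ventral neural tube, and Cited4 a transcriptional co-activator that binds the acetyltransferases CBP and p300. Col9a1 encodes a chain of type IX collagen, a cartilage matrix protein. Ism2 encodes a secreted protein of the isthmin family, Susd1 a membrane protein with sushi domains, and Fam167a a protein whose function is little described.

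The libraries carried the markers of their labels. The sum of Pou5f1, Nanog, Sox2 and Zfp42 ran from 1010 to 1703 FPKM in R1 ESC and the Sox17 line up to 49 h. It was 367.9 FPKM at day 6, 10.4 FPKM in Sox17-XEN and 9.76 FPKM in wild-type XEN. The day 6 sum was mostly Pou5f1, at 324.5 FPKM, against 722.8 FPKM without dox. Zfp42 was at 39.7 FPKM at day 6 (247.6 FPKM without dox), Nanog at 1.89 FPKM (169.3) and Sox2 at 1.84 FPKM (130.7). The primitive endoderm markers Gata4, Gata6, Sox7, Foxa2, Pdgfra and Dab2 summed to 1731 FPKM at day 6, 1707 FPKM in Sox17-XEN and 1386 FPKM in wild-type XEN, against 15.4 FPKM without dox. The 22 fibroblast feeder markers summed to 3355 FPKM without dox, 1510 FPKM after 7 h, 1960 FPKM after 21 h, 2502 FPKM after 35 h, 3770 FPKM after 49 h and 437 FPKM at day 6. In Sox17-XEN they summed to 1269 FPKM, in wild-type XEN to 67.6 FPKM and in R1 ESC to 1342 FPKM. The feeder sums thus differed between the libraries compared below, and their part in the results was not tested. The cartilage markers Sox9, Col2a1, Acan and Matn3 summed to 7.34 FPKM after 21 h, against 6.78 FPKM without dox. In these bulk libraries, fewer cells with a transcript and less of it per cell cannot be told apart.

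The sequence before the transcription start was available in RefSeq (GRCm38.p6) for 5 of the 6 genes, Fam167a being the exception. Because the genes were chosen after Sox17 induction, the 250 bases before each start were searched on both strands for the SOX core ACAAT, for AACAAAG, for the octamer ATGCAAAT, and for 2 composite Sox-Oct motifs, ATTGTATGC and the same with 1 more base of any kind between ATTGT and ATGC. Both composites contain ACAAT, read on the other strand. Nkx2-9 was the only gene with a match, to ACAAT at 2 places, which begin 182 and 144 bases before the start and are in capitals below. The 3 genes with the steepest courses are shown, at chr12:56613285-56613534 on the minus strand for Nkx2-9, chr1:24177360-24177609 on the plus strand for Col9a1 and chr4:120666313-120666562 on the plus strand for Cited4.
Nkx2-9: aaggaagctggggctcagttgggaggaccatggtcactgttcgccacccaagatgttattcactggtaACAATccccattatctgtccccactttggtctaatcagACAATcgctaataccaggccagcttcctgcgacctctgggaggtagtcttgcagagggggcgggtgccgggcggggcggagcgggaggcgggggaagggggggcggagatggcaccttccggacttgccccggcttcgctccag
Col9a1: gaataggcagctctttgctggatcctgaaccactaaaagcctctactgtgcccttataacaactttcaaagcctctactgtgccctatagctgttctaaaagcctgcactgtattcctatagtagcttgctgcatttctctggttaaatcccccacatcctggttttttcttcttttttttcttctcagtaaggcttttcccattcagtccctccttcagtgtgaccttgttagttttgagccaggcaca
Cited4: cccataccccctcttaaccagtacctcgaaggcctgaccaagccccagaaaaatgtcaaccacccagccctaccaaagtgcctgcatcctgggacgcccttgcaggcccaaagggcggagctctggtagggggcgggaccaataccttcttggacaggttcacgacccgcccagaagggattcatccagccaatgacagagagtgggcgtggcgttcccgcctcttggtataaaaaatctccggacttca
Of all 32851 windows of this length, 27.7% held ACAAT, against 1 of the 5 genes. The other motifs were in none of the 5 genes, and in 0.0791% (ATTGTATGC) to 5.03% (AACAAAG) of all windows. The sequences differ in composition. The Nkx2-9 and Cited4 windows were 61.6% and 58.0% G and C, the Col9a1 window was 43.6% G and C with no CG pair, and the Ism2 window, at 77.6%, lay above the 90th percentile of all windows (69.2%). A second Col9a1 start, at chr1:24194953-24195202, also had no match. A match is a description of the letters and not evidence of binding, and enhancers were not examined.

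Sox17 itself (chromosome 1, 4481009 to 4486494, mm9) was at 0.909 FPKM without dox and at 283 FPKM after 7 h, 281 FPKM after 21 h, 191 FPKM after 35 h, 151 FPKM after 49 h and 71.1 FPKM at day 6. It was at 101 FPKM in Sox17-XEN, 239 FPKM in wild-type XEN and 0.163 FPKM in R1 ESC. Transgene and endogenous Sox17 RNA were not separated here. Sox17 RNA was thus abundant in both XEN lines, where the 6 genes were low because the choice required it.

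Among the transcriptional regulators, Nkx2-9 (chromosome 12, 57712376 to 57714271) was at 1.56 FPKM without dox, 47.2 FPKM after 7 h, 62.4 FPKM after 21 h, 18.1 FPKM after 35 h, 12.3 FPKM after 49 h and 0.511 FPKM at day 6. It was at 1.24 FPKM in Sox17-XEN, 0.377 FPKM in wild-type XEN and 1.01 FPKM in R1 ESC. Of the 6 genes it had the largest share of its highest level at 7 h, 75.7%. By 35 h it was down to 28.9% of that level, while Sox17 RNA was still at 67.7% of its own.

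Cited4 (chromosome 4, 120339168 to 120340425) was at 0.802 FPKM without dox, 8.17 FPKM after 7 h, 15.4 FPKM after 21 h, 9.32 FPKM after 35 h, 7.31 FPKM after 49 h and 0.0494 FPKM at day 6. It was at 0.0162 FPKM in Sox17-XEN, listed at 0 in wild-type XEN and at 0.711 FPKM in R1 ESC. The late libraries are near the uninduced one only on the log2(FPKM + 1) scale. In FPKM, day 6 was at 0.0616 times and Sox17-XEN at 0.0202 times the no dox level. The authors' upper bound for Cited4 was 196 FPKM after 35 h and 146 FPKM after 49 h, 21.0 and 20.0 times the estimates, against 2.58 times at 21 h, so these are the widest intervals of its course.

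Among the extracellular proteins, Col9a1 (chromosome 1, 24184449 to 24259577) had the largest rise of the 6 as a ratio to no dox, though not in FPKM. It was at 0.0554 FPKM without dox, 7.05 FPKM after 7 h, 34.9 FPKM after 21 h, 9.91 FPKM after 35 h, 3.79 FPKM after 49 h and 0.0767 FPKM at day 6. It was at 0.0467 FPKM in Sox17-XEN, 0.00588 FPKM in wild-type XEN and 0.0317 FPKM in R1 ESC. Its 21 h level was 630 times that without dox, a ratio that rests on a very low uninduced value, and 4.95 times that at 7 h. No other member differed as much between 21 and 7 h.

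Ism2 (chromosome 12, 88619588 to 88640655) was at 1.04 FPKM without dox, 6.65 FPKM after 7 h, 13.7 FPKM after both 21 and 35 h, 10.8 FPKM after 49 h and 1.74 FPKM at day 6. It was at 0.0892 FPKM in Sox17-XEN, 0.0836 FPKM in wild-type XEN and 1.45 FPKM in R1 ESC. Its course was a plateau from 21 to 49 h. Both XEN lines were far below the 2 ESC lines, at 0.0862 times (Sox17-XEN) and 0.0808 times (wild-type XEN) the no dox value.

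Susd1 (chromosome 4, 59327555 to 59451505) was at 1.44 FPKM without dox, 5.18 FPKM after 7 h, 16.8 FPKM after 21 h, 16.2 FPKM after 35 h, 11.9 FPKM after 49 h and 2.95 FPKM at day 6. It was at 1.48 FPKM in Sox17-XEN, 0.591 FPKM in wild-type XEN and 2.03 FPKM in R1 ESC. This was the slowest of the plateau genes, with 30.9% of its highest level at 7 h. Its upper bounds were 6.31 to 10.6 times the estimates, the widest of the 6 genes apart from Cited4 at 35 and 49 h. Its locus overlaps that of Gm12527, which did not exceed 0.192 FPKM.

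Fam167a (chromosome 14, 64055231 to 64084335) was at 1.33 FPKM without dox, 12.9 FPKM after 7 h, 20.4 FPKM after 21 h, 16.8 FPKM after 35 h, 15.7 FPKM after 49 h and 2.50 FPKM at day 6. It was at 3.02 FPKM in Sox17-XEN, 1.23 FPKM in wild-type XEN and 1.14 FPKM in R1 ESC. Of the 6 genes it was the highest in Sox17-XEN, at 2.27 times its no dox level.

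**Figure D1:**
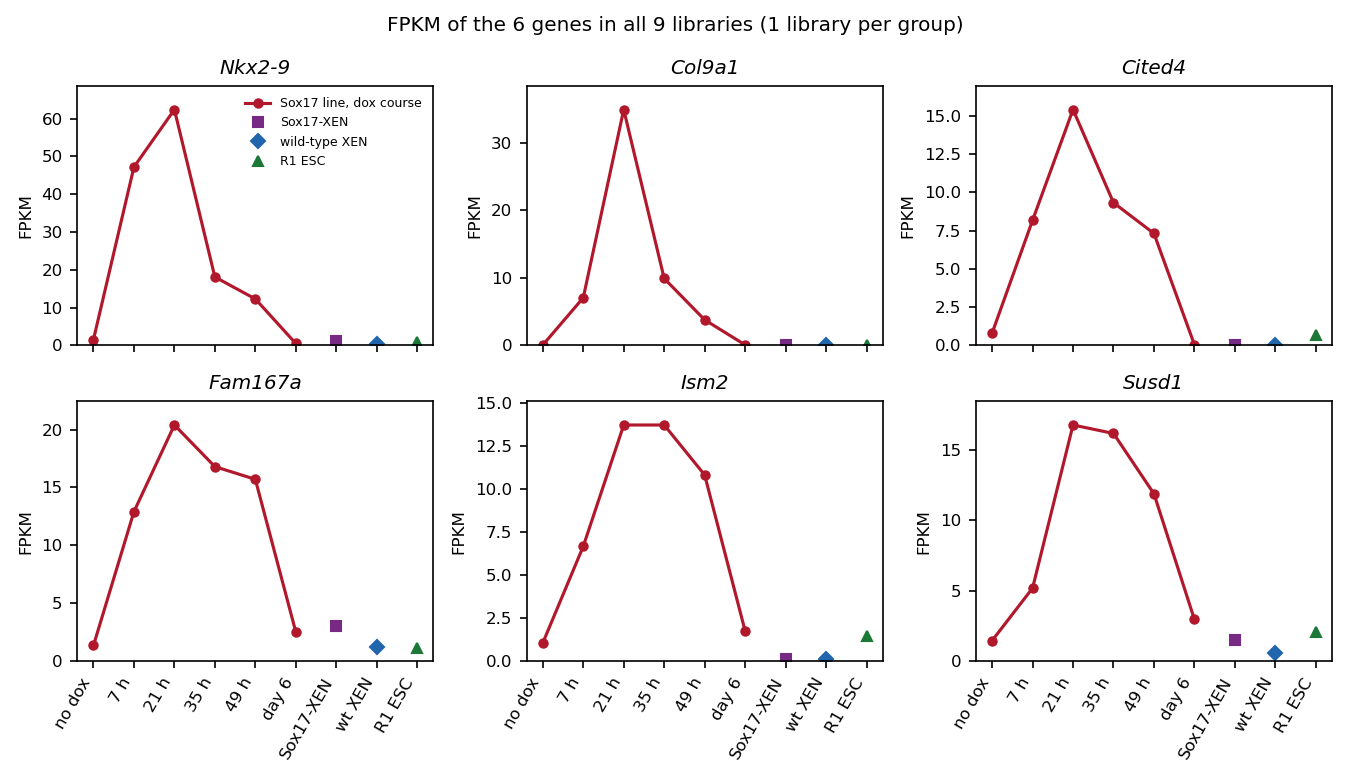
FPKM of each gene (vertical axis, linear, starting at 0) in the 9 libraries (horizontal axis), with the dox course joined by a line and Sox17-XEN, wild-type XEN and R1 ESC as single points. There is 1 library per point and no error bar. All 6 genes are highest at 21 or 35 h, for example Nkx2-9 at 62.4 FPKM after 21 h, and low at day 6 and in the 3 other lines.

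All 54 values of the 6 genes had the status OK, and the authors' lower bound was 0 for all 54. The intervals of every gene therefore overlap between any 2 libraries, and no value has a replicate error. In what follows, higher or lower means a difference of at least 2 on the log2(FPKM + 1) scale, which is 4-fold in FPKM + 1.

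Against no dox, all 6 genes were higher at 21 h, where 0.746% of all 15011 genes compared were higher, and at 35 h (0.614%) and 49 h (0.706%). None was lower at 7, 21, 35 or 49 h, where 0.340%, 0.446%, 0.460% and 0.466% of all genes were. No lower call was possible for the 6 on this scale, since their highest value without dox was 1.35 (Nkx2-9). Apart from 7 h, the contrasts with no dox given here chose the genes, and nothing is read from the counts. The median difference of the 6 was 3.19 at 21 h, 2.88 at 35 h and 2.39 at 49 h, with medians over all genes of -0.06, -0.01 and 0.03. None of the 6 was higher at day 6 (5.14% of all genes), in Sox17-XEN (5.75%) or in wild-type XEN (5.92%), as the choice required. None was lower at day 6 (3.86% of all genes) or in wild-type XEN (6.98%), where the low no dox values again made a lower call impossible. With a pseudocount of 0.1, Cited4 was lower at day 6 (-2.59) and in wild-type XEN (-3.17), and Ism2 in wild-type XEN (-2.63), the other genes not. In Sox17-XEN the differences ran from -0.90 (Ism2) to 0.79 (Fam167a). Nor was any of the 6 higher (2.73% of all genes) or lower (1.59%) in Sox17-XEN than in wild-type XEN, the largest difference being that of Fam167a (0.85). Levels this low left almost no room for such a call, the highest being those of Fam167a, 2.01 in Sox17-XEN and 1.16 in wild-type XEN. The median gene of at least 5 FPKM was 0.24 higher at day 6, 0.35 higher in Sox17-XEN and 0.43 higher in wild-type XEN than without dox. Relative to these shifts the late differences of the 6 genes ran from -1.34 (Ism2, wild-type XEN) to 0.46 (Susd1, day 6).

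The 7 h library is the earliest after induction, and it was not used in choosing them, although the no dox library it is compared with was. At 7 h, 4 of the 6 genes were higher than without dox: Nkx2-9 (4.24), Col9a1 (2.93), Fam167a (2.57) and Cited4 (2.35). Ism2 (1.91) and Susd1 (1.34) did not reach the difference. Of all 15007 genes compared, 0.446% were higher at 7 h, and between 0.120% (Nkx2-9) and 0.700% (Susd1) of all genes had a larger difference than each of the 6. The 7 h counts are a description, since the genes were picked as high above the uninduced level later in the same course. Of the 16 other named rows that met the written-out form of that rule, given below, 5 were also higher at 7 h. Ism2 is a borderline case, at 2.03 after removing the shift of the median gene. The feeder markers had a median difference of -1.14 at this time, with 3 of 22 lower, against 0.340% of all genes. Against R1 ESC, the same 4 genes were higher at 7 h, with 0.473% of all genes: Nkx2-9 (4.58), Col9a1 (2.96), Fam167a (2.69) and Cited4 (2.42). The feeder sum was 1342 FPKM in R1 ESC and 1510 FPKM after 7 h. R1 ESC is another line of another genotype, and the part of the feeders in the 7 h differences was not tested.

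The comparison of the Sox17 line without dox with R1 ESC shows how far the genes differ between ESC lines with no induction. None of the 6 was higher, with 0.367% of all genes, and none was lower, with 0.227%. Neither call was possible, since log2(FPKM + 1) of the 6 was at most 1.35 without dox (Nkx2-9) and 1.60 in R1 ESC (Susd1). Nothing is read from these counts. The differences ran from -0.31 (Susd1) to 0.35 (Nkx2-9), within 1.54 times in FPKM for Nkx2-9 and 1.75 times for Col9a1. Sox17 RNA was 0.909 FPKM in the Sox17 line without dox and 0.163 FPKM in R1 ESC.

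A highest value at 21, 35 or 49 h and a low one at day 6 follow largely from the choice of genes, so the courses are given as a description. Nkx2-9, Col9a1, Cited4, Fam167a and Susd1 were highest at 21 h, and Ism2 had 99.9% of its highest level there. Sox17 RNA was highest at 7 h and 99.4% of that at 21 h. At 49 h Col9a1 was at 10.9%, Nkx2-9 at 19.7% and Cited4 at 47.5% of their highest levels, below the 53.4% of Sox17. Fam167a was at 76.8%, Ism2 at 78.8% and Susd1 at 70.8%, above that of Sox17. This grouping into steep and plateau courses was made after the values were seen.

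**Figure D2:**
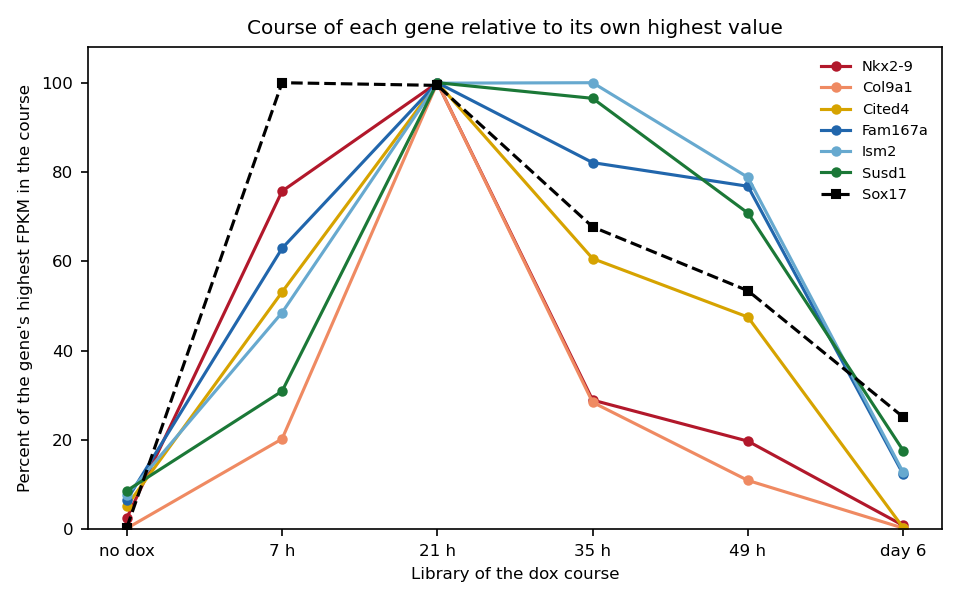
Each gene's FPKM as a percent of its own highest value in the dox course (vertical axis) by library (horizontal axis, not to time scale); solid lines are the 6 genes and the dashed black line is Sox17. Col9a1 and Nkx2-9 drop to 28.4% and 28.9% at 35 h, whereas Ism2 and Susd1 are at 100% and 96.5%, and at day 6 Sox17 is at 25.1% with the 6 genes between 0.220% and 17.6%.

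From step to step, Col9a1 was higher at 21 h than at 7 h (2.16), the only member past the difference, with 0.386% of all genes. None was lower at 35 h than at 21 h (0.233% of all genes), the closest being Nkx2-9 (-1.74) and Col9a1 (-1.72). None was lower at 49 h than at 35 h (0.293%), with all 6 differences below 0 and Col9a1 at -1.19. At day 6, 5 of the 6 were lower than at 49 h, with 3.47% of all genes. These were Nkx2-9 (-3.14), Cited4 (-2.99), Fam167a (-2.25), Col9a1 (-2.15) and Ism2 (-2.11), while Susd1 was at -1.70. That last contrast is close to the rule that chose them. Feeder markers, which summed to 437 FPKM at day 6 and 3770 FPKM after 49 h, also differed across it, and their part in the result was not tested.

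Relatives of the 6 genes mostly took other courses. Type IX collagen is built of chains from Col9a1, Col9a2 and Col9a3. Col9a3 was higher at 21 h (2.31), at 9.82 FPKM against 1.18 FPKM without dox, and was at 7.38 FPKM after 35 h and 3.90 FPKM after 49 h. Col9a2 was at 5.11 FPKM after 21 h, against 5.26 FPKM without dox. Of the 11 measured genes of the collagen IX and cartilage matrix list, Col9a1 and Col9a3 were the only ones higher at 21 h. None was lower. Of all genes, 0.746% were higher and 0.446% lower at 21 h. The list's median difference was -0.12, and that of all genes -0.06. Col2a1, the main cartilage collagen, was at 4.68 FPKM after 21 h, against 3.88 FPKM without dox. Sox9, the chondrogenic factor known to act on Col9a1, did not exceed 1.01 FPKM in any library. Of the 3 measured chondrogenic SOX genes, none was higher or lower at 21 h, with a list median of 0.31. Sox8 was at 1.26, Sox5 at 0.31 and Sox9 at -0.18.

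The Cited family split by time. Cited1 was at 1.21 FPKM without dox, 3.44 FPKM after 21 h, 6.20 FPKM after 49 h and 161 FPKM at day 6, and stood at 68.6 FPKM in Sox17-XEN and 313 FPKM in wild-type XEN. Cited2 was at 24.0 FPKM without dox, 23.0 FPKM after 21 h, 109 FPKM at day 6, 407 FPKM in Sox17-XEN and 580 FPKM in wild-type XEN. Cited4 thus had its highest level before the others, and was near 0 in the libraries where they were abundant. Among factors known to work with CITED proteins, Ep300 and Crebbp stayed within 0.30 of no dox from 7 to 49 h. The AP-2 factor gene Tfap2c was at 22.7 FPKM without dox, 52.1 FPKM after 21 h, 60.4 FPKM after 35 h and 1.57 FPKM at day 6, lower only at day 6 within the dox course (-3.20). Of the 6 measured partners none was higher or lower at 7 to 49 h. Of all genes, 0.446% to 0.746% were higher and 0.340% to 0.466% lower at these times. The partners' median was -0.09 at 21 h, and that of all genes -0.06.

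Susd2, whose protein carries both a sushi domain, as SUSD1 does, and an AMOP domain, as ISM2 does, was at 3.13 FPKM without dox, 21.2 FPKM after 21 h, 21.3 FPKM after 35 h and 15.6 FPKM after 49 h. It was at 31.3 FPKM at day 6, 99.6 FPKM in Sox17-XEN and 34.1 FPKM in wild-type XEN. Susd3, Susd4 and Susd5 were within the difference at 7 to 49 h. Ism1 and Fam167b did not reach 1 FPKM in any library. In the NKX list 3 of 14 genes reached 1 FPKM. Nkx6-2, another homeodomain gene of the ventral neural tube, was at 1.31 FPKM without dox, 7.78 FPKM after 21 h, 4.04 FPKM after 35 h and 2.72 FPKM after 49 h (1.92 at 21 h, under the difference), and it was at 7.13 FPKM in Sox17-XEN and 0.509 FPKM in wild-type XEN.

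In the neural tube Nkx2-9 lies downstream of Sonic hedgehog, so genes of that pathway were examined beside it. Of 15 measured Hedgehog pathway genes only Hhip was higher than without dox at 21 and 35 h. At 7 and at 49 h 0 were higher. Of all genes, 0.446% were higher at 7 h, 0.746% at 21 h, 0.614% at 35 h and 0.706% at 49 h. Gli2 was lower at 49 h, where 0.466% of all genes were. Hhip encodes a ligand-binding antagonist and is a target of the pathway. Hhip was at 0.202 FPKM without dox, 3.5 FPKM after 7 h, 4.82 FPKM after 21 h, 4.41 FPKM after 35 h, 3.23 FPKM after 49 h and 0.159 FPKM at day 6, and at 14.9 FPKM in Sox17-XEN. Gli1, the common readout of pathway activity, took another course, with 22.0 FPKM without dox, 25.1 FPKM after 7 h, 15.2 FPKM after 21 h, 7.02 FPKM after 49 h and 0.201 FPKM at day 6. Shh did not reach 1 FPKM in any library. The median of the 15 genes at 21 h was -0.15, and -0.06 over all genes. Of 6 measured ventral neural tube genes, Foxa1 and Foxa2 were higher at 21 h, where 0.746% of all genes were. The list median was 1.20, and that of all genes -0.06. Foxa1 and Foxa2 are also endoderm factors.

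The genes next to the members on the chromosome were compared by their 21 to 49 h mean against no dox. Fam167a lies 164.7 kb from Gata4, the primitive endoderm factor. Gata4 was at 0.824 FPKM without dox, 1.96 FPKM after 7 h, 4.57 FPKM after 21 h, 13.1 FPKM after 35 h, 32.0 FPKM after 49 h and 303 FPKM at day 6. The mean difference of Gata4 was 2.91 and that of Fam167a 2.99. Fam167a was the higher of the pair through 35 h, and Gata4 from 49 h on. On the other side, Tdh, the threonine dehydrogenase of mouse ESCs, was at 14.3 FPKM after 21 h, against 23.3 FPKM without dox. The mean difference of Tdh was -0.58. Rod1, an RNA-binding protein gene 33.2 kb from Susd1, was at 13.5 FPKM without dox, 31.8 FPKM after 7 h, 36.1 FPKM after 21 h and 38.6 FPKM at day 6 (a mean difference of 1.45). The predicted gene Gm12860, 43.9 kb from Cited4, was at 0.0930 FPKM without dox, 1.68 FPKM after 7 h and 1.16 FPKM after 21 h, and was listed at 0 at day 6 and in both XEN lines. The mean difference of Gm12860 was 0.72. The other 8 neighbours had mean differences between -0.17 (Gm10925) and 0.71 (Fam135a).

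**Figure D3:**
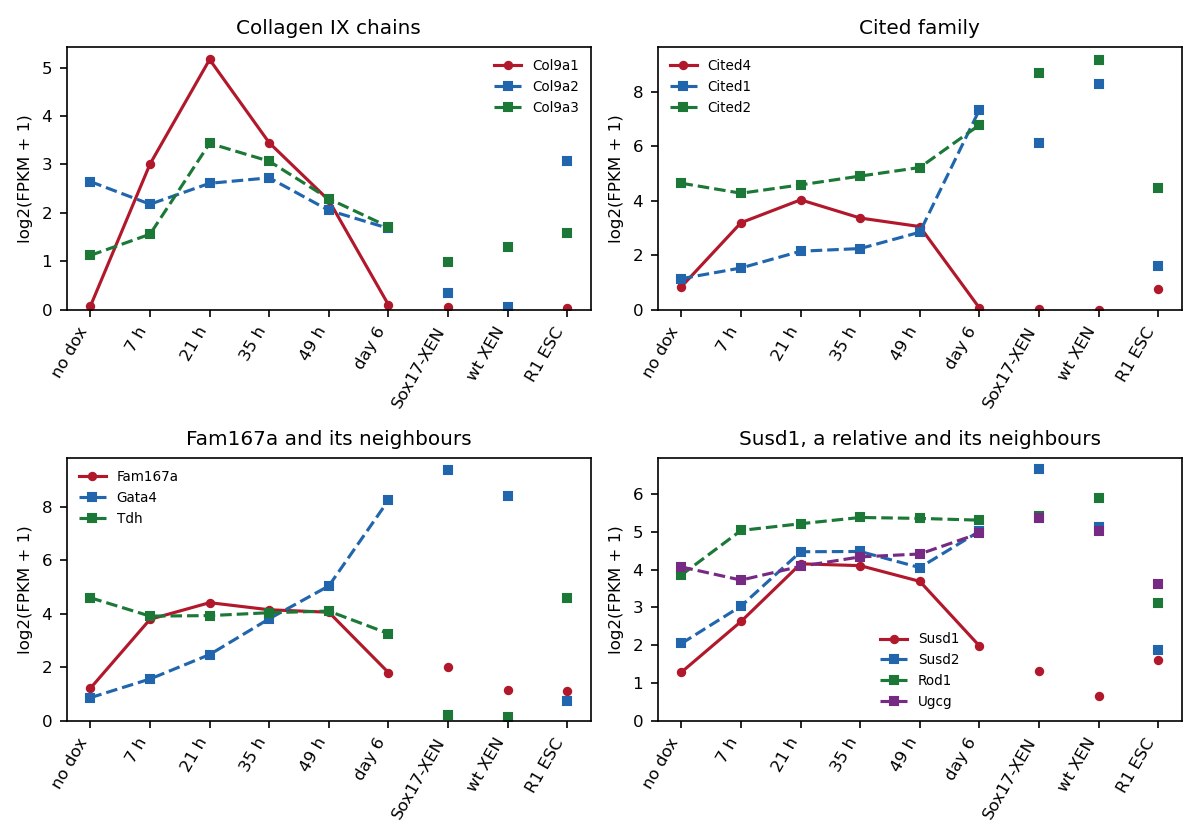
Levels as log2(FPKM + 1) (vertical axes) in the 9 libraries (horizontal axes), the dox course joined by lines and the other 3 libraries as points, 1 library per point. Solid red lines are Col9a1, Cited4, Fam167a and Susd1, and dashed lines are relatives or neighbours. Cited1, Cited2, Gata4 and Susd2 are high in the late libraries, for example Gata4 at 303 FPKM at day 6, where the red lines are low.

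To see how large the population is that the 6 genes come from, the rule was written out as a mean of 21, 35 and 49 h at least 2 above no dox, with day 6, Sox17-XEN and wild-type XEN each at most 1 above it. Of 14892 genes with the needed values, 75 had such a mean and 32 also met the late condition. Without predicted and small RNA genes these numbers were 55 and 22, so that 33 named rows were still more than 1 above no dox in some late library. All 6 genes were among the 22 on this scale (5 with a pseudocount of 0.1, where Fam167a was not), with means from 2.64 (Cited4) to 3.55 (Col9a1) and highest late differences from -0.78 (Cited4) to 0.79 (Fam167a). Just inside the limit of 2 lay the retinoid-binding protein gene Rbp7, with Ly6g6f (1.99) just outside. Just inside the late limit of 1 lay AU015836 (0.88), with Pgam2 (1.33) just outside.

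The other 16 named rows belong to 15 symbols. Among them are Phf19, a Polycomb-associated gene (3.07), the non-coding gene Sox2ot around Sox2 (2.91), Id4, an inhibitor of basic helix-loop-helix factors (2.49), Krt42, a keratin gene (2.45), Slc32a1 and Slc6a17, which encode vesicular transporters (2.39 and 2.36), and the pioneer factor gene Foxa1 (2.37). Rhox9 (2.29), Tm6sf1 (2.17), Kif26a (2.16), Zcchc18 (2.16), Gpx2 (2.16) and Cd247 (2.11) follow. AU015836 has 2 rows. At 7 h 5 of the 16 were higher than without dox, and 11 of the 16 were highest at 21 h. Of the 16, Phf19 and Krt42 stood furthest below their no dox levels in all 3 late libraries, with highest late differences of -2.28 and -3.70. Rbp7 (-1.23), Rhox9 (-0.97), Zcchc18 (-0.63), Sox2ot (-0.59) and Kif26a (-0.29) were also below in all 3. So were Cited4 (-0.78) and Nkx2-9 (-0.19) of the 6 genes.

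**Figure D4:**
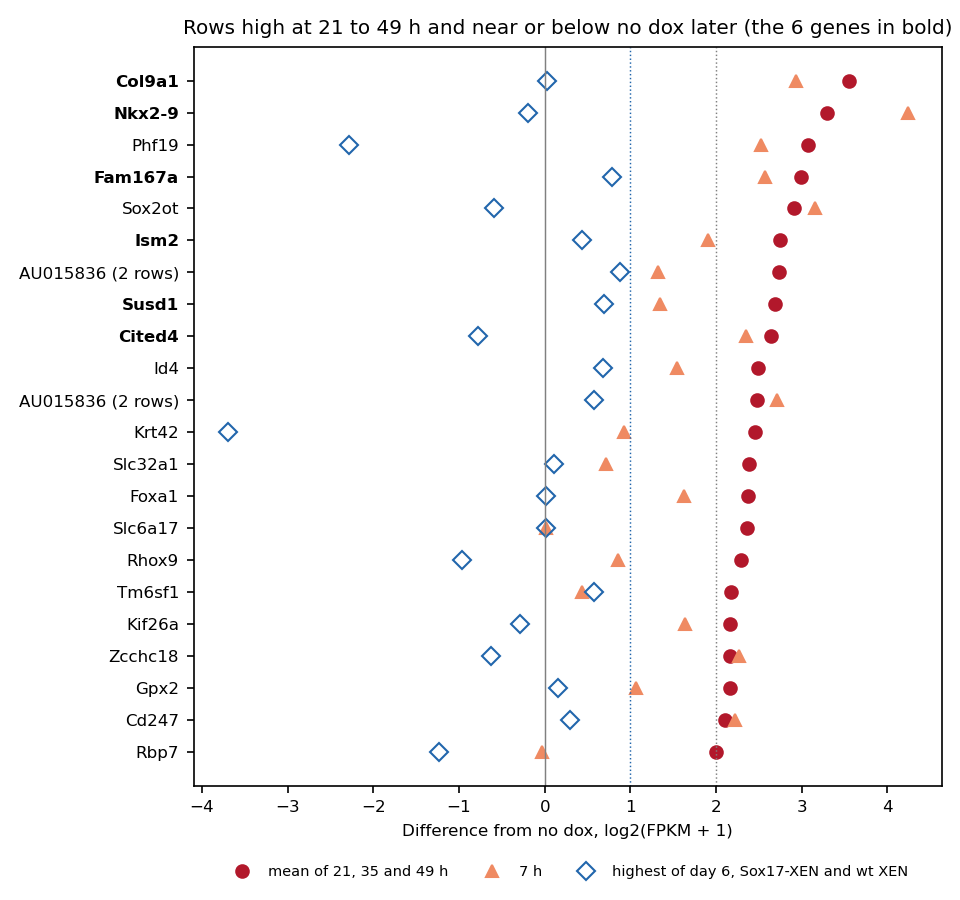
Differences from no dox in log2(FPKM + 1) (horizontal axis) of the 22 named rows (vertical axis), with the 6 genes in bold: filled circles are the mean of 21, 35 and 49 h, triangles 7 h, and open diamonds the highest of day 6, Sox17-XEN and wild-type XEN. Dotted lines mark the limits of 2 and 1. Nkx2-9 has the largest 7 h difference (4.24), and Slc6a17 and Rbp7 are at 0.02 and -0.03 there.

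Across the 9 libraries the profiles of the 6 genes correlated with each other at r of 0.84 (Nkx2-9 and Susd1) to 0.97 (Ism2 and Susd1), on the log2(FPKM + 1) scale. This is a description, since the genes were chosen for this shape and 7 of the libraries carry the line name 4J. Of 10033 other genes of at least 5 FPKM in some library, 38 had r of at least 0.9 with the mean profile of the 6. The most like was Foxa1 (r = 0.99 over 9 libraries), at 0.167 FPKM without dox, 2.62 FPKM after 7 h, 5.64 FPKM after 21 h, 5.45 FPKM after 35 h, 4.12 FPKM after 49 h and 0.181 FPKM at day 6. Its paralogue Foxa2 was at 0.560 FPKM without dox, 6.21 FPKM after 21 h and 30.5 FPKM at day 6. Next came Ly6g6f (0.98), the Notch pathway ligase gene Dtx4 (0.98), the Ras-related gene Rerg (0.97), Zcchc18 (0.97), the somatostatin receptor gene Sstr2 (0.97), Klhl21 (0.97), the phosphoglycerate mutase gene Pgam2 (0.97), Sox2ot (0.96) and Kctd12b (0.96). For single genes, Ly6g6f was closest to Col9a1 (0.99) and Nkx2-9 (0.98), Zcchc18 to Cited4 (0.99), Foxa1 to Fam167a (0.97), Dtx4 to Ism2 (0.98) and Pgam2 to Susd1 (0.97).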

How the data were processed

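RNA was isolated with Trizol and turned into TruSeq RNA libraries, per the labels' protocols. Tools named in the submitters' processing notes are TopHat2 2.0.11, Cufflinks 2.1.2 and Cuffdiff, with mm9 as the build. Their roles, the annotation and the use of strand are not given in the sources used here. The authors deposited FPKM per gene, with a lower and an upper bound in FPKM and a status, in 1 table. Values with another status than OK (1.06%) were treated as missing. Gene coordinates are 1-based mm9 positions from the table, and promoter coordinates are GRCm38.p6; none were converted.

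Values were used as log2(FPKM + 1) and 15082 genes that reached 1 FPKM in any library were kept. With 1 library per group no test was possible, so no p-value is given. The absolute depth is unknown. The commonest ratio between low values put the depth at 57.8% (day 6) to 119% (7 h) of the no dox library, although only 3.15% to 10.2% of low values shared it. No counting interval or detection limit is given. The lower bound was 0 for 98.7% of values of at least 1 FPKM.

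The genes and the lists were chosen with earlier results of these data known. Named were the 6 genes, Sox17, the 10 genes most like their mean profile and up to 3 for each gene, the nearest gene of at least 1 FPKM on each side, relatives, up to 4 genes per list by difference, and up to 15 of the rows that met the written-out rule. Genes beyond these limits were named after their values were seen. The calculations were tested on simulated data built only from genes well above the no dox levels of the 6, so this does not cover values as low as theirs. Python 3.11.15, numpy 2.4.6, pandas 2.3.3 and matplotlib 3.10.9 were used. Alternatives were the pseudocount, the filter, rescaling, the threshold, the authors' bounds, the baseline, the libraries in the mean, the likeness measure and the promoter window.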

Additional observations from a re-analysis of the deposited data

How the results depend on the processing

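The 4 genes higher at 7 h and the 6 higher at 21, 35 and 49 h against no dox were 0 at each time when the authors' confidence bounds also had to be apart. Of all genes 0 were higher at each of these times under that condition, 7 at day 6, 6 in Sox17-XEN and 3 in wild-type XEN, so it removes nearly every call in the table. Under the other 5 alternatives the number of the 6 genes higher stayed within 1.5 times at every contrast. With a pseudocount of 0.1, Ism2 (2.57) passed the difference at 7 h, and Cited4 was lower at day 6 (-2.59), in Sox17-XEN (-2.96) and in wild-type XEN (-3.17), as was Ism2 in Sox17-XEN (-2.58) and wild-type XEN (-2.63). Their closeness to no dox in the XEN lines thus depends on the pseudocount of 1. Apart from the condition on bounds, 218 of 234 differences of single genes kept sign and side.

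The 32 entries that met the written-out rule became 119 with a pseudocount of 0.1 and 173 with a mean of at least 1. With that pseudocount 5 of the 6 genes met it, since Fam167a was 1.13 above no dox in Sox17-XEN. All 6 met it under the other alternatives, and leaving out the 21, 35 or 49 h library kept the number of entries within 1.5 times. The count of all genes higher, with a pseudocount of 0.1, was 121 after 7 h (67 as reported), 289 after 21 h (112), 236 after 35 h (92), 262 after 49 h (106), 1190 at day 6 (771), 1320 in Sox17-XEN (862) and 142 without dox against R1 ESC (55). With 1 log2 unit it was 175, 468, 390 and 489 over the times 7 to 49 h, 2639 at day 6, 3088 in Sox17-XEN, 3075 in wild-type XEN and 530 without dox against R1 ESC. After rescaling it was 574 in Sox17-XEN and 584 in wild-type XEN (887), and against R1 ESC 167 at 49 h and 1317 in Sox17-XEN. Of the 10 genes most like the 6, 3 remained with Spearman's rho, 4 over the 6 libraries of the dox course and 7 with a pseudocount of 0.1, Foxa1 and Klhl21 each time. No paired analysis was possible because each group has 1 library.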

Other observations

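Other SOX genes had courses of their own around the 6 genes. Sox13 was at 18.0 FPKM without dox, 33.4 FPKM after 7 h, 51.4 FPKM after 21 h, 49.5 FPKM after 35 h, 46.2 FPKM after 49 h and 6.81 FPKM at day 6, a course like a plateau whose differences stayed under 2 (1.46 at 21 h). Sox14 was at 0.0112 FPKM without dox, 1.33 FPKM after 7 h, its highest, and 0.340 FPKM after 21 h. Sox21 was at 0.253 FPKM without dox, 24.2 FPKM after 7 h, 33.7 FPKM after 21 h, 22.6 FPKM after 49 h and 1.39 FPKM at day 6, and it was at 9.97 FPKM in Sox17-XEN. Sox8 was at 1.89 FPKM after 21 h, against 0.207 FPKM without dox. These genes were named after their values were seen.

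Of the 32 rows that met the written-out rule, 10 carry symbols of predicted or small RNA genes, and 6 of these are U6 rows. A U6 row was at 557.5 FPKM after 49 h and listed at 0 in the other 8 libraries, so this row meets the rule through a single library.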
